A study of Mus musculus with 8 samples.

Results

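The CXC chemokines described here are 9 genes, *Cxcl1*, *Cxcl2*, *Cxcl3*, *Ppbp*, *Pf4*, *Cxcl9*, *Cxcl10*, *Cxcl14* and *Cxcl16*, out of the 18635 genes with a row of values. They were taken by gene symbol, and each symbol had 1 row. RNA was sequenced from bone marrow-derived macrophages (BMDMs) kept for 24 h in medium conditioned by AE17 cells, a mouse mesothelioma line, and such cells are called TEMs here. The 4 control samples were Phgdhfl/fl TEMs, which carry floxed alleles of *Phgdh*, the gene of the first enzyme of serine synthesis from glycolysis, and no Cre. The 4 other samples were Phgdhfl/fl Cx3cr1-Cre TEMs, with the same floxed alleles and a Cre recombinase expressed from the *Cx3cr1* locus of myeloid cells. The groups therefore differed in the Cre allele as well as in *Phgdh*, and the effects of the Cre allele and of the loss of *Phgdh* cannot be told apart. BMDMs without conditioned medium were not analysed here.

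CXC chemokines are small secreted proteins that guide leukocytes through G protein-coupled receptors. Those with a Glu-Leu-Arg sequence before the first cysteines, the products of *Cxcl1*, *Cxcl2*, *Cxcl3* and *Ppbp* among them, bind CXCR2 and attract neutrophils, whereas CXCL9 and CXCL10 are induced by interferons and bind CXCR3 on activated T cells and NK cells. *Pf4* (CXCL4) and *Ppbp* are best known from platelets. CXCL14 is made by many resting tissues, and CXCL16 is made as a transmembrane protein that binds CXCR6 and is released from the cell surface by the protease ADAM10.

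Of the 9 genes, 7 lie on chromosome 5 of mm10. On the plus strand, *Ppbp* (90768518 to 90770063), *Pf4* (90772435 to 90773383), *Cxcl3* (90786103 to 90789600), *Cxcl1* (90891241 to 90893115) and *Cxcl2* (90903871 to 90905938) follow each other with gaps of 2.37, 12.7, 101.6 and 10.8 kb. *Cxcl9* (92321347 to 92328079) and *Cxcl10* (92346638 to 92348889) lie 1415 kb further on, on the minus strand. *Cxcl14* lies on the minus strand of chromosome 13 (56288643 to 56296551) and *Cxcl16* on the minus strand of chromosome 11 (70453983 to 70459984). All are protein-coding genes, whose principal coding transcript has 3 exons in *Ppbp* and *Pf4*, 5 in *Cxcl16* and 4 in the others.

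The sequences before the starts of *Cxcl1*, *Cxcl2* and *Cxcl3* are shown because these neighbors share the letters of an NF-κB site there. Their changes between the genotypes differed, and a part of the site in these changes was not tested. The 110 bases before each RefSeq start (GRCm38.p6, the build of mm10) are printed 5′ to 3′ on the plus strand, with the 9 letters GGAATTTCC in capitals.

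Cxcl1, chr5:90891135-90891244: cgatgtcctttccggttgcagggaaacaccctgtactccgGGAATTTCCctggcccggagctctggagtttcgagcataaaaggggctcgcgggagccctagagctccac

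Cxcl2, chr5:90903789-90903898: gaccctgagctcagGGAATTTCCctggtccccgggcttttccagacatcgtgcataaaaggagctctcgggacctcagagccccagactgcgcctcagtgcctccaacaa

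Cxcl3, chr5:90785991-90786100: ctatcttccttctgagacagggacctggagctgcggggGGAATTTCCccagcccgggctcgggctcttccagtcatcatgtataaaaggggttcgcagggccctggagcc

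The capitals begin 70 bases before the start in *Cxcl1*, 96 in *Cxcl2* and 72 in *Cxcl3*. These are RefSeq starts, which for *Cxcl1* and more so for *Cxcl2* lie inside the gene as placed above. On either strand (GGAATTTCC or GGAAATTCC), these letters occur in 104 of 32851 promoter windows of 300 bases in RefSeq, 0.317%. A promoter was found for 8 of the 9 genes, *Cxcl16* being the exception. *Cxcl10* also holds them, on the opposite strand, 158 to 150 bases before its start, together with the letters GAAANNGAA of an interferon response element from 213 to 205 bases before it. The 80 bases of the minus strand that hold both, shown because no other of the 8 promoters had both sets of letters, are printed with both matches in capitals.

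Cxcl10, chr5:92349030-92349109: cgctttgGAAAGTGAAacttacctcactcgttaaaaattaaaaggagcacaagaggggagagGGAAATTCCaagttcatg

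The letters GAAANNGAA or TTCNNTTTC were found in 8.56% of the same promoter windows, also in those of *Cxcl9* and *Cxcl14*. A match of letters is a description of the sequence only.

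The values are normalized counts, namely reads counted per gene divided by a size factor of the sample. Between 38219563 and 47027420 reads per sample were counted on genes. *Phgdh* itself had normalized counts between 104.9 and 128.9 in Phgdhfl/fl TEMs and between 14.2 and 35.3 in Phgdhfl/fl Cx3cr1-Cre TEMs, and *Cx3cr1* fell from 1075 ± 94.2 to 659.8 ± 32.2 (SD, n = 4 each), with a limma adjusted p of 1.9e-09 for a log2 fold change of -0.70. The study describes the samples of each genotype as biologically independent, and whether they came from separate animals is not given in the sources used here. Macrophage markers were abundant in both groups, *Csf1r* at 85156 ± 1424 and 84084 ± 1131 (SD, n = 4 each). Of 8 macrophage markers, 3 were lower in Phgdhfl/fl Cx3cr1-Cre TEMs, where 20.3% of all tested genes were. On the log2 scale *Fcgr1*, an Fc receptor, changed by -0.40 (limma adjusted p = 7.4e-12), *Itgam* (CD11b) by -0.19 (adjusted p = 7.0e-06) and *Adgre1* (F4/80) by -0.084 (adjusted p = 0.0056). Of 8 markers of lymphocytes and mast cells only *Ms4a1* had a row, at no more than 4.13 normalized counts in any sample. Of 6 dendritic cell markers, *Ccr7* and *Zbtb46* passed the filter described next and neither was called.

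Genotypes were compared over the 13629 genes whose normalized count averaged 10 or more, by limma on log2(normalized count + 1) with Benjamini-Hochberg adjustment. Each log2 fold change is for Phgdhfl/fl Cx3cr1-Cre over Phgdhfl/fl TEMs. Of the 9 chemokines, 8 passed this filter, and *Cxcl9* had too few reads. Of the 8, 6 had an adjusted p under 0.05, where 41.0% of all tested genes did. One gene, *Cxcl1*, was higher (background 20.8%), and 5, *Cxcl3*, *Ppbp*, *Pf4*, *Cxcl14* and *Cxcl16*, were lower (background 20.3%) in Phgdhfl/fl Cx3cr1-Cre TEMs. In 5 of the 8 (*Cxcl1*, *Cxcl3*, *Ppbp*, *Pf4* and *Cxcl14*) no sample of one genotype fell within the range of the other, as in 36.7% of all tested genes. Over the 8 chemokines the median log2 fold change came to -0.15, beside -0.0018 over all tested genes, and the median size of the change to 0.32 beside 0.12. These samples are bulk cultures, in which fewer cells of a type and less RNA per cell cannot be told apart.

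**Figure D1:**
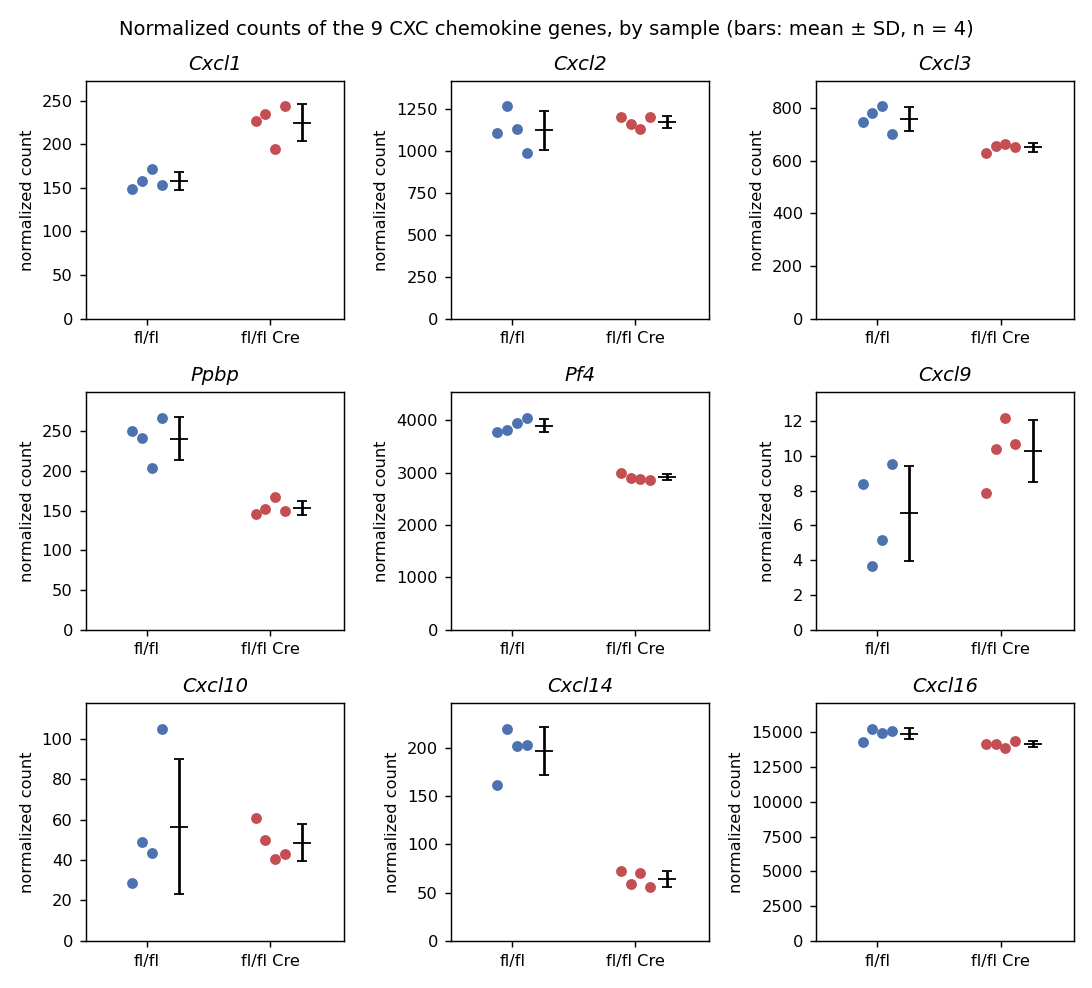
Normalized counts (y axis, from 0) of each of the 9 CXC chemokine genes in the 4 samples of Phgdhfl/fl TEMs (fl/fl, blue) and the 4 of Phgdhfl/fl Cx3cr1-Cre TEMs (fl/fl Cre, red); black bars give the mean ± SD. *Cxcl14*, *Ppbp*, *Pf4* and *Cxcl3* sit lower and *Cxcl1* higher in every Cre sample than in any control sample, while the groups overlap for the other 4 genes.

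The CXCR2 ligands did not move together. *Cxcl1*, whose product (KC) is a major neutrophil attractant of the mouse, had normalized counts of 149, 158, 172 and 153 in Phgdhfl/fl TEMs and of 226, 235, 194 and 243 in Phgdhfl/fl Cx3cr1-Cre TEMs. Every Cre sample lay above every control sample, and the mean rose from 158 ± 9.98 to 225 ± 21.4 (SD, n = 4 each), that is by 42.3%. This corresponded to a log2 fold change of 0.50 with a standard error of 0.090 and a limma adjusted p of 1.1e-04.

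*Cxcl2*, whose product (MIP-2) binds the same receptor, had 1104, 1264, 1129 and 986 normalized counts in Phgdhfl/fl TEMs and 1198, 1161, 1129 and 1200.1 in Phgdhfl/fl Cx3cr1-Cre TEMs. The Cre samples lay inside the range of the controls, which spread more widely (SD 114 against 33.7). The log2 fold change was 0.070 with a 95% interval from -0.042 to 0.18 (limma adjusted p = 0.319). Without replicate 2 of Phgdhfl/fl, the highest sample, it was 0.13 with an adjusted p of 0.0399, so that this sample decided the call.

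*Cxcl3*, the third gene of this kind, had 746, 781, 806 and 703 normalized counts in Phgdhfl/fl TEMs and 628, 658, 665 and 654 in Phgdhfl/fl Cx3cr1-Cre TEMs. All Cre samples lay below all control samples. The mean fell from 759 ± 44.7 to 651 ± 16.1 (SD, n = 4 each), or by -0.22 on the log2 scale with a standard error of 0.049 and a limma adjusted p of 0.0011.

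Whether the responses of these 3 genes differed from each other was tested on their ratio within each sample, in which the scaling of the sample cancels. The ratio of *Cxcl1* to *Cxcl2* was 0.142 ± 0.0141 in Phgdhfl/fl TEMs and 0.191 ± 0.0145 in Phgdhfl/fl Cx3cr1-Cre TEMs (SD, n = 4 each). That of *Cxcl1* to *Cxcl3* went from 0.208 ± 0.0083 to 0.345 ± 0.0361, and that of *Cxcl2* to *Cxcl3* from 1.48 ± 0.103 to 1.80 ± 0.0905. On the log2 scale the differences were 0.43, 0.72 and 0.29. For each of the 3 ratios the genotypes did not overlap (exact two-sided permutation test on the log2 ratio, n = 4 against 4, p = 0.0286, the smallest that 70 labelings allow, and 0.0381 adjusted over the 4 pairs tested). For *Cxcl1* to *Cxcl3* this was fixed in advance, since every Cre sample was higher for *Cxcl1* and lower for *Cxcl3* than any control. The log2 differences also depend on each other, since each follows from the others. In order of log2 fold change, *Cxcl1* stood above *Cxcl2* and *Cxcl2* above *Cxcl3*. Windows of 75 bases, the length of a read, that also occur in a transcript of another gene made up 4.57% of those of *Cxcl2*, 2.78% of *Cxcl3* and 0 of those of *Cxcl1*. Of 10 neutrophil markers, *Csf3r* and *S100a8* had a row. Both were higher in Phgdhfl/fl Cx3cr1-Cre TEMs, where 20.8% of all tested genes were. The rise was 0.14 and 0.23 on the log2 scale (limma adjusted p = 2.6e-04 and 0.0044). Their summed normalized count was between 3690 and 3845 in Phgdhfl/fl and between 4147 and 4250 in Phgdhfl/fl Cx3cr1-Cre TEMs. Most of it came from *Csf3r*, with means of 3240 and 3575. *Ly6g*, *S100a9*, *Mpo* and 5 others had no row analysed here. The part of neutrophils in the levels of these ligands was not tested.

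**Figure D2:**
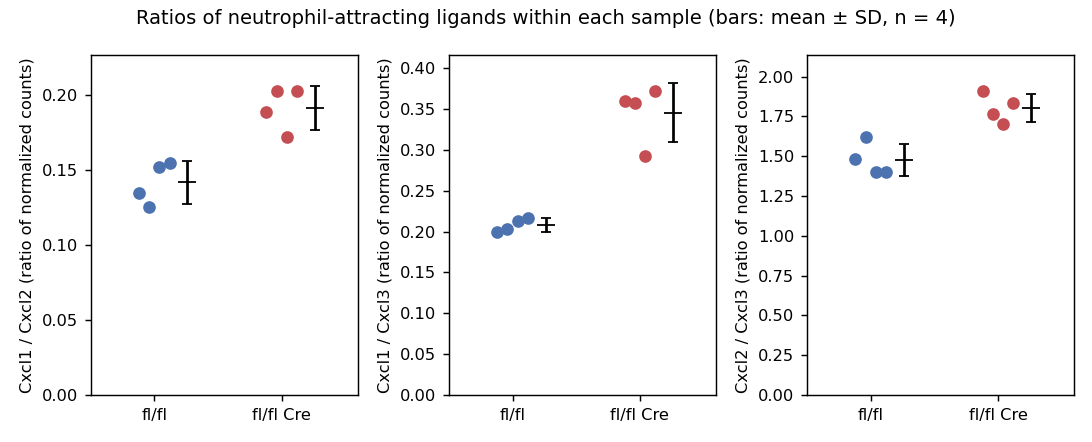
Ratio of the normalized counts of *Cxcl1* to *Cxcl2* (left), *Cxcl1* to *Cxcl3* (middle) and *Cxcl2* to *Cxcl3* (right) within each sample (y axes from 0), for Phgdhfl/fl TEMs (fl/fl, blue) and Phgdhfl/fl Cx3cr1-Cre TEMs (fl/fl Cre, red), with the mean ± SD of 4 samples in black. In each panel all Cre samples lie above all control samples, the mean of *Cxcl1* to *Cxcl3* going from 0.208 to 0.345.

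Both platelet chemokines were lower. *Pf4*, which encodes platelet factor 4, a heparin-binding chemokine, had 3777, 3813, 3939 and 4048 normalized counts in Phgdhfl/fl TEMs and 2993, 2902, 2884 and 2854 in Phgdhfl/fl Cx3cr1-Cre TEMs. Samples of a genotype were close to each other (SD 124 and 59.7), and the groups stood far apart. The mean fell by 25.3%, and the log2 fold change of -0.42 had a standard error of 0.029 and a limma adjusted p of 2.2e-10.

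*Ppbp*, whose product is cut to the neutrophil attractant NAP-2, had 250.1, 242, 204 and 267 normalized counts in Phgdhfl/fl TEMs and 146, 152, 167 and 149.8 in Phgdhfl/fl Cx3cr1-Cre TEMs. The groups did not overlap, and the mean fell from 241 ± 26.8 to 154 ± 9.02 (SD, n = 4 each). Its log2 fold change of -0.64 had a standard error of 0.092 and a limma adjusted p of 9.0e-06. The ratio of *Pf4* to its neighbor *Ppbp* was 16.3 ± 2.03 in Phgdhfl/fl and 19.0 ± 1.30 in Phgdhfl/fl Cx3cr1-Cre TEMs (SD, n = 4 each). The ranges of this ratio overlapped (exact two-sided permutation test on the log2 ratio, p = 0.114). Of 12 other markers of platelets and megakaryocytes, 7 had a row, and their summed normalized count was higher in the Cre samples, between 3761 and 4151 against 2332 and 2576. Most of this sum came from *Vwf*, with means of 1691 in the controls and 2506 in the Cre samples. Below the filter were *Gp9* (means of 2.86 and 1.56), *Tubb1* (7.48 and 11.7) and *Clec1b* (6.18 and 7.47), which got no call. Within that list *Itgb3*, an integrin chain that macrophages also make, rose by a log2 fold change of 1.71 (limma adjusted p = 4.7e-14) and *Vwf*, the gene of von Willebrand factor, by 0.57 (adjusted p = 1.4e-10). *Itga2b*, the other chain of the platelet fibrinogen receptor, stayed between 16.5 and 23.4 normalized counts in all 8 samples, and *Gp1ba*, *Gp1bb*, *Gp5* and *Gp6* had no row analysed here. *Treml1* was at 399 ± 34.3 and 428 ± 14.7 (SD, n = 4 each). The part of such cells in the levels of *Pf4* and *Ppbp* was not tested.

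The interferon-induced pair had few reads. *Cxcl9* had between 4 and 12 reads per sample, or 8.37, 3.68, 5.17 and 9.54 normalized counts in Phgdhfl/fl TEMs and 7.88, 10.4, 12.2 and 10.7 in Phgdhfl/fl Cx3cr1-Cre TEMs. The groups overlapped, with means of 6.69 ± 2.73 and 10.3 ± 1.79 (SD, n = 4 each, exact two-sided permutation test, p = 0.0857).

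*Cxcl10*, which encodes the T cell attractant IP-10, had 28.8, 48.8, 43.4 and 104.9 normalized counts in Phgdhfl/fl TEMs and 60.8, 49.9, 40.7 and 42.8 in Phgdhfl/fl Cx3cr1-Cre TEMs. The control sample of replicate 4 was the highest of all 8, with 110 reads, and that of replicate 1 the lowest, with 31. The log2 fold change was -0.071 with a wide 95% interval, from -0.62 to 0.48 (limma adjusted p = 0.858). Without replicate 4 of Phgdhfl/fl the direction turned, to 0.28 (adjusted p = 0.329). Without replicate 3 of Phgdhfl/fl Cx3cr1-Cre it was 0.0061 (adjusted p = 0.991). *Cxcl10* overlaps *Art3* on the other strand, and 2.47% of its windows of 75 bases occur in transcripts of other genes. The ratio of *Cxcl10* to *Cxcl9* lay between 3.44 and 13.3 in Phgdhfl/fl and between 3.33 and 7.71 in Phgdhfl/fl Cx3cr1-Cre TEMs, and was not tested.

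*Cxcl14* changed the most of the 8 genes. Its normalized counts were 162, 219.98, 203 and 203 in Phgdhfl/fl TEMs and 72.01, 59.2, 70.1 and 55.4 in Phgdhfl/fl Cx3cr1-Cre TEMs, with a wide gap between the groups. The mean was 197 ± 24.8 against 64.2 ± 8.12 (SD, n = 4 each), or 3.07 times higher in the controls. In limma this was a log2 fold change of -1.60 with a standard error of 0.12 and an adjusted p of 1.3e-09. Of all tested genes, 19 lower ones, *Cxcl14* included, had a log2 fold change at or under this value with an adjusted p under 0.05. Leaving out any single sample kept the Cre mean at 0.308 to 0.341 of the control mean. *Cxcl14* is also made by fibroblasts and epithelium. Of 8 markers of these cells, *Col1a1*, *Col1a2*, *Col3a1* and *Dcn* had a row, and their summed normalized count was between 22.1 and 36.2 in Phgdhfl/fl and between 19.7 and 49.6 in Phgdhfl/fl Cx3cr1-Cre TEMs. The part of such cells in the level of *Cxcl14* was not tested.

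*Cxcl16* was among the most abundant of the 9 genes and moved the least of those called. It had 14337, 15257, 14944 and 15086 normalized counts in Phgdhfl/fl TEMs and 14134, 14194, 13904 and 14399 in Phgdhfl/fl Cx3cr1-Cre TEMs. The ranges touched, since the highest Cre sample lay above the lowest control sample. The Cre mean lay 5.02% under the control mean, a log2 fold change of -0.074 with a standard error of 0.023 and a limma adjusted p of 0.0138. The adjusted p was 0.0864 with quantile normalization, where the log2 fold change was -0.047, 0.0666 without the mean-variance trend and 0.0552 without replicate 2 of Phgdhfl/fl. *Cxcl16* overlaps *Zmynd15* on the other strand, and 15.4% of its windows of 75 bases occur in transcripts of other genes.

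**Figure D3:**
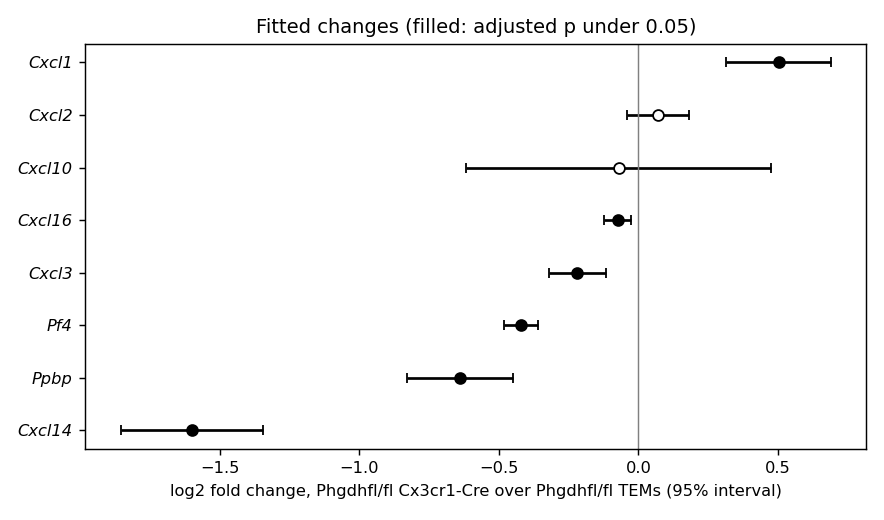
Log2 fold change (x axis) of the 8 CXC chemokine genes that passed the filter, for Phgdhfl/fl Cx3cr1-Cre over Phgdhfl/fl TEMs (n = 4 each), with the 95% interval from limma; filled points have an adjusted p under 0.05. The genes spread from -1.60 for *Cxcl14* to 0.50 for *Cxcl1*, and the intervals of *Cxcl2* and *Cxcl10* cross 0.

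Levels of different genes were compared only per length, as reads per kb of annotated exon per 1000000 reads on genes. On this scale *Pf4* was highest in Phgdhfl/fl TEMs (125 ± 3.79), followed by *Cxcl16* (114 ± 2.99) and *Cxcl2* (12.5 ± 1.28; SD, n = 4 each). *Ppbp* (5.13 ± 0.575) and *Cxcl3* (5.01 ± 0.294) came next, and the ranges of these 2 levels overlapped. The level was 2.49 ± 0.312 for *Cxcl14* and 1.94 ± 0.121 for *Cxcl1*, again with overlapping ranges. *Cxcl10* (0.579 ± 0.342) and *Cxcl9* (0.0512 ± 0.0209) were lowest. In Phgdhfl/fl TEMs, 98.3% of genes had a lower level per length than *Pf4* and 14.4% a lower level than *Cxcl9*. In Phgdhfl/fl Cx3cr1-Cre TEMs *Cxcl16* (109 ± 1.495) stood above *Pf4* (94.1 ± 1.82), *Cxcl3* (4.34 ± 0.117) above *Ppbp* (3.31 ± 0.199), and *Cxcl1* (2.79 ± 0.265) above *Cxcl14* (0.819 ± 0.103), with no overlap between neighbors in the order. Taken per length of the principal coding transcript, which is shorter than all annotated exons together for *Cxcl3* (1016 against 3498 bases) and *Cxcl1* (953 against 1875), *Cxcl3* stood above *Ppbp* (17.2 and 5.13) and *Cxcl1* above *Cxcl14* (3.82 and 2.49) in Phgdhfl/fl TEMs as well. On that length the order in Phgdhfl/fl Cx3cr1-Cre TEMs also changed, with *Cxcl1* (5.50) above *Ppbp* (3.31) and *Cxcl10* (1.03) above *Cxcl14* (0.819), so that these places in the order depend on the length used.

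**Figure D4:**
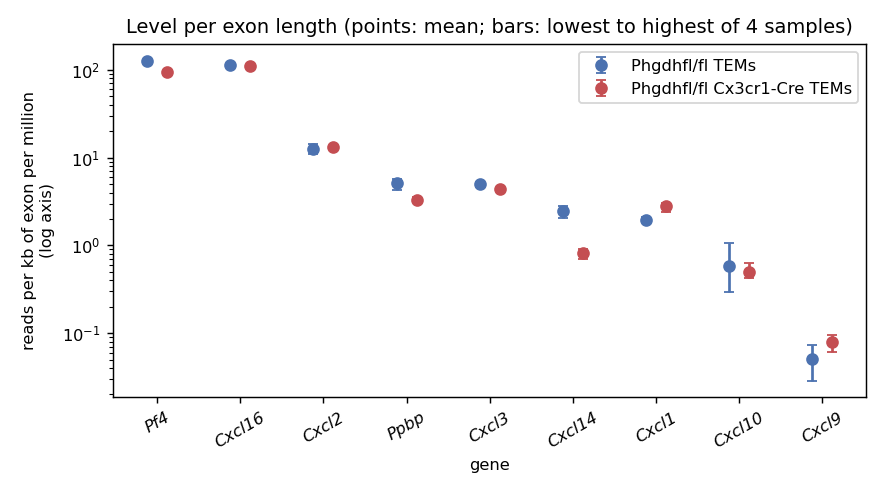
Level per length (y axis, log scale, reads per kb of annotated exon per 1000000 reads on genes) of the 9 CXC chemokine genes (x axis, in the order of the controls) in Phgdhfl/fl (blue) and Phgdhfl/fl Cx3cr1-Cre TEMs (red); points are means and bars run from the lowest to the highest of 4 samples. *Pf4* and *Cxcl16* lie near 100 in both groups and *Cxcl9* below 0.1.

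Among the other CXC ligands, *Cxcl5*, a CXCR2 ligand of the same gene cluster, had 61.4, 102, 86.8 and 96.4 normalized counts in Phgdhfl/fl TEMs and 69.8, 61.3, 61.0 and 66.1 in Phgdhfl/fl Cx3cr1-Cre TEMs. The groups overlapped, and the log2 fold change of -0.40 (limma adjusted p = 0.0415) did not pass without the filter, without the mean-variance trend or without any 1 of replicates 2, 3 and 4 of either genotype. *Cxcl12* had at most 4.13 normalized counts, and *Cxcl11*, *Cxcl13*, *Cxcl15* and *Cxcl17* had no row analysed here.

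Of the 8 receptors for these ligands, *Cxcr3* and *Cxcr4* passed the filter. Both were higher in Phgdhfl/fl Cx3cr1-Cre TEMs without overlap (background 20.8% higher, and 36.7% without overlap in either direction). *Cxcr3*, the receptor of CXCL9 and CXCL10, had 214, 163, 216 and 191 normalized counts in the controls and 236, 245, 247 and 253 in the Cre samples (log2 fold change 0.33, limma adjusted p = 0.0048). *Cxcr4*, the receptor of CXCL12, had a log2 fold change of 0.23. *Cxcr1* and *Cxcr5* stayed under 10 normalized counts in each sample, and *Cxcr2*, *Cxcr6*, *Ackr1* and *Ackr3* had no row analysed here.

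Of 10 genes of proteins that cut, release or bind CXC ligands, 8 were tested, of which 4 were higher and 2 lower in Phgdhfl/fl Cx3cr1-Cre TEMs, and the median log2 fold change was 0.18 (background 20.8% higher and 20.3% lower). *Mmp9*, a gelatinase that trims CXC chemokines, had 1844 ± 108 normalized counts in the controls and 719 ± 35.0 in the Cre samples (SD, n = 4 each), with a log2 fold change of -1.36 and a limma adjusted p of 5.4e-15. *Dpp4*, whose product shortens CXCL10, rose by 0.98 on the log2 scale at low counts (12.4 ± 4.20 and 25.0 ± 5.31). *Mmp12*, the macrophage elastase, rose by 0.55 and *Mmp8*, a collagenase, by 0.28, while *Adam10* was lower by -0.066.

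Of 8 genes of proteins that control the stability of chemokine mRNAs, limma called 5 lower and none higher in Phgdhfl/fl Cx3cr1-Cre TEMs, with a median log2 fold change of -0.11 (background 20.3% lower and 20.8% higher). *Zfp36* (tristetraprolin), which promotes the decay of AU-rich mRNAs such as that of *Cxcl1*, changed by -0.18 and its relative *Zfp36l1* by -0.16. *Khsrp*, another decay factor, changed by -0.12, and *Elavl1* (HuR), which stabilizes such mRNAs, by -0.23. The 3 that were not called, *Zfp36l2*, *Rc3h1* and *Rc3h2*, had log2 fold changes of 0.017, 0.031 and 0.027.

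Of 14 genes of the NF-κB pathway, 5 were higher and 2 lower, with a median of 0.056 (background 20.8% higher and 20.3% lower, 41.0% in either direction). The called *Nfkbi* genes went in different directions, *Nfkbie* by 0.33 and *Nfkbib* by 0.19, *Nfkbia* by -0.21 and *Nfkbiz* by -0.17. Of 11 genes of interferon signaling, 3 were higher and 5 lower, with a median of -0.051 (background 20.8% higher and 20.3% lower). The kinase genes *Jak2* (0.20) and *Tyk2* (0.14) were higher, and the transcription factor gene *Stat2* (-0.17) was lower.

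The genes whose values over the 8 samples were most like those of *Cxcl1*, by the root mean square difference of log2 values after subtraction of each gene's mean, were *Gbp2* (0.065), *Trim68* (0.077) and *Gadd45a* (0.079). Those most like *Cxcl14* were ENSMUSG00000115837 (0.15), *Btbd11* (0.16) and *Dmpk* (0.18).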

How the data were processed

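Single-end 75-base reads were mapped by the authors to mm10 with TopHat2, counted per gene with HTSeq 0.6 and normalized with DESeq2. What the authors deposited for each gene and sample is a signal, the read count over the size factor of the sample, although it is named FPKM. Whole reads were recovered for 100% of the 144353 values above 0 (within 0.01 of a whole number). The table also holds the authors' mean, log2 fold change, standard error, test statistic and p-values, which were not used. Each sample column was matched to a sample by its description. Listed genes were found by symbol, which 3602 of the 18635 genes lack, so that a gene without a row here may be among those.

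The comparison of genotypes used limma 3.58.1 (R 4.3.3), with lmFit and a two-sided eBayes test with a mean-variance trend and no covariate, on log2(normalized count + 1), which understates changes of genes with few reads, over 13629 genes. Single values were tested by exact permutation of samples (scipy 1.17.1). On the recovered reads, edgeR 4.0.16 called 5608 genes and DESeq2 1.42.0 called 5066, beside 5594 with limma. The main limma fit, edgeR and DESeq2 were run on simulated counts, with results not reported here, and the other settings were not. Simulated samples of a group spread less than the controls of *Cxcl10* did. Positions and exon lengths came from GENCODE M21 (mm10), in which 18629 genes were found, and promoters from RefSeq (GRCm38.p6). The strand setting of the counting is not given in the sources used here.

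The 9 genes and the gene lists were chosen with earlier results of these data known, and the sequence motifs with the promoters in view. Named are the 9 genes, *Phgdh* and *Cx3cr1*, other CXC ligands and receptors with a row, up to 4 called genes of each pathway list with the largest log2 fold change, abundant markers, and the 3 genes nearest in profile to the called genes with the largest rise and fall. *Adam10*, *Fcgr1*, *Itgam*, *Itga2b* and the genes that were not called or had no row were named outside this rule. Single values of some listed genes are not reported here. Counting error is larger, relative to the level, for genes with few reads. The spread between replicates adds to it, as among the controls of *Cxcl10* (31 to 110 reads). Alternatives were a pseudocount of 0.1, no filter, a mean of at least 50, quantile normalization, scaling to total reads, no trend, a replicate block, edgeR, DESeq2, each sample left out and, added after the data were seen, the length of the principal transcript.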

Additional observations from a re-analysis of the deposited data

Results flagged for a closer look

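In 3 of 34 groups of 4 samples looked at, 1 sample lay far from the others by Dixon's ratio, the gap to the nearest sample divided by the range, by the critical value for 4 samples. Chance alone gives this in about 1 in 20 groups of normally spread values. The flagged genes had at most 9 reads in any sample, so that this rate need not apply to them. *Cxcl12* had 3.38 normalized counts in replicate 1 of Phgdhfl/fl Cx3cr1-Cre and 1.04, 1.02 and 0.973 in the others (ratio 0.972). *Cxcr1* had 5.63 in the same sample and 3.12, 3.05 and 2.92 in the others (ratio 0.926). *Cxcr5* had 6.20 in replicate 3 of Phgdhfl/fl and 0.930, 0 and 0 in the others (ratio 0.850). All 3 genes lie below the filter on low values, and none of the 9 chemokines was among them.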

How the results depend on the processing

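The directions and calls of *Cxcl1*, *Cxcl3*, *Ppbp*, *Pf4* and *Cxcl14* held in all settings tried. The log2 fold change of *Cxcl16* lost its call with quantile normalization (-0.047) and without the trend (-0.074), and lay between -0.093 and -0.063 with samples left out, with adjusted p up to 0.0552. With samples left out, *Cxcl2* lay between 0.010 and 0.13 and *Cxcl10* between -0.33 and 0.28, and the number of chemokines called higher was 1 or 2. The log2 ratio differences then lay between 0.38 and 0.48 for *Cxcl1* to *Cxcl2*, 0.68 and 0.80 for *Cxcl1* to *Cxcl3* and 0.26 and 0.33 for *Cxcl2* to *Cxcl3*, at adjusted p of at least 0.0571, since 3 against 4 samples cannot pass. With the replicate block they were 0.43, 0.72 and 0.29, where 4 pairs cannot pass either (adjusted p = 0.167).

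Samples of the same replicate number deviated together only weakly, with correlations over genes of 0.063 to 0.126, all positive. Correlations of samples with different numbers lay between -0.124 and 0.135, and most were negative. The control of the same number was the best match for Cre replicates 2 and 3, and another control for Cre replicates 1 and 4. The numbers were not taken as pairs in the main fit. In limma the replicate block called 5597 genes in place of 5594 and changed no call among the chemokines. Scaling to total reads moved the median of all genes from -0.0018 to 0.013.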
